A study of Mus musculus with 8 samples.

Results

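Ribosome biogenesis factors are the proteins that make ribosomes without being part of the finished particle, and 54 genes for such proteins were followed in 32Dcl3, an established line of mouse myeloid progenitors. Of these, 52 had at least 1 probe set whose platform annotation gives that symbol alone, out of 18193 genes so represented, and they held 104 of the 45037 probe sets in the table. Npm3 matched no such probe set and Mrto4 was named only in a probe set that also carries other symbols, so both were not analysed here. These cells depend on interleukin-3 (IL-3) for growth, and granulocyte colony-stimulating factor (G-CSF) turns them toward neutrophils. They had been transduced with the retroviral vector pMYs-IG (mock) or with pMYs-FLAG-ASXL1-MT-IG, which expresses a mutant form of the chromatin regulator ASXL1 with a FLAG tag (ASXL1-MT). Mutations of ASXL1 are known from myeloid neoplasms. Mock and ASXL1-MT cells were each measured in IL-3 (0 h) and after 2, 6 and 24 h of G-CSF, on 8 Affymetrix arrays, 1 for each condition. The study asked how ASXL1-MT alters expression during the response to G-CSF. Sources used here do not state whether the transduced cells were clones or a pool, whether G-CSF replaced IL-3 or was added to it, or whether each time had a culture of its own.

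A ribosome begins in the nucleolus, where RNA polymerase I transcribes a long precursor RNA that is then modified, cut and folded together with ribosomal proteins. Small nucleolar ribonucleoproteins (snoRNPs) guide methylation of riboses (box C/D) and conversion of uridine to pseudouridine (box H/ACA). Separate sets of assembly factors shape the 40S and 60S subunits and leave before the subunits enter translation. The whole pathway is known to be costly for the cell, to be driven by growth signals and by the transcription factor MYC, and to decline when progenitors stop dividing.

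MYC and its partner MAX bind the E-box CACGTG, so the promoter windows of the members in RefSeq (mouse build GRCm38.p6, 250 bases before to 50 after the start of the gene) were searched for these letters. CACGTG reads the same on both strands and was sought with no other motif. Of 46 members with a window, 9 held it (19.6%): Grwd1, Imp4, Nop2, Pes1, Pno1, Tsr1, Utp18, Utp20 and Wdr43. Counted by gene, it occurred in 8.09% of all 27025 genes in the table and in 11.1% of the 10696 tested genes that have a window. Among other factors of the 40S pathway, the 60S subunit and the RNA polymerase I machinery, it occurred in 20.6%, 27.3% and 16.7%. The share was thus not particular to the members. It was 10.5% among ribosomal proteins. Counted by window, it occurred in 9 of the 49 windows of the members (18.4%) and in 7.15% of all 32851 promoter windows. Of the 15 members of the 40S pathway with a window, 6 held it. Fbl, Tcof1, Npm1, Rrp12, Bop1 and Rrs1 were not searched. Shown are the 4 members that fell at least 2-fold at both 6 and 24 h of G-CSF and hold the E-box between 130 bases before and 30 after the start. Each stretch has these 160 bases on the strand of the gene, 5′ to 3′, with the E-box in capitals. They lie at chr6:125131753-125131912 (plus strand), chr11:74897950-74898109 (plus strand), chr11:93885737-93885896 (minus strand) and chr17:71616085-71616244 (plus strand).
Nop2: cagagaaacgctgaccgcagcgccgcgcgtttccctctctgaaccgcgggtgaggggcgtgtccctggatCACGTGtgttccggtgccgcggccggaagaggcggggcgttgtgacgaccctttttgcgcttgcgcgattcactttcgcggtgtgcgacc
Tsr1: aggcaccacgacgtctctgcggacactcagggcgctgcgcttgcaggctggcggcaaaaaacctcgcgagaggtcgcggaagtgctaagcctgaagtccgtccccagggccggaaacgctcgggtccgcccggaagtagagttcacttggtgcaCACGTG
Utp18: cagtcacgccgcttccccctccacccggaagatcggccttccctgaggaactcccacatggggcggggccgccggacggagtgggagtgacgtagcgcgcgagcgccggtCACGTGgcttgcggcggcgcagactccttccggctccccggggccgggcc
Wdr43: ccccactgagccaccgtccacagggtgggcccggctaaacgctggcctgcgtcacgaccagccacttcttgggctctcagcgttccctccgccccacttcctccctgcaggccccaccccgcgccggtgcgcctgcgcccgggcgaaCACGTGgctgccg
The first base of the E-box lies 60 bases before the start in Nop2 and 20 before it in Utp18, and it lies at bases 25 and 18 in Tsr1 and Wdr43, with the start counted as base 1. Of the 9 members with the E-box, 8 were called lower after 6 h of G-CSF, as were 32 of the 37 without it.

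The deposited values are log2 expression minus the median of each probe set over the 8 arrays, with the base of 2 assumed, so a value of 0 is that probe set's own middle and levels of different genes cannot be set against each other. Each gene was represented by 1 probe set, and all 52 members were bright enough to test, as were 13232 genes in all. Changes are log2 differences ± the standard error of a limma fit of the 8 arrays, 2 against 2 for each G-CSF time, and "called" means an adjusted p under 0.05 in limma over all genes tested. No condition was replicated, and each G-CSF time has 1 mock and 1 ASXL1-MT array. The fit adds time point and vector, so its spread is how far the time courses of the 2 vectors depart from parallel. Such a departure may be technical or an effect of ASXL1-MT on the response, and the design cannot tell these apart. The p-values and standard errors rest on this spread, and the number of arrays limits their precision. Array medians over all probe sets lay between -0.04 and 0.06. Of 8 myeloid progenitor markers, 6 reached an estimated log2 level of 8 (Kit and Cd34 did not), and 3 of 7 markers of maturing neutrophils did. No marker of erythroid cells (0 of 4), T cells (0 of 4) or B cells (0 of 3) did so. The macrophage markers Adgre1 and Csf1r (2 of 6), the mast cell marker Cpa3 (1 of 5) and the fibroblast marker Col1a2 (1 of 5) also reached it. Among the 4 tested markers of maturing neutrophils, 2 were called higher at 6 h and 4 at 24 h. Their median value was -1.20 to -0.19 in the IL-3 arrays, -0.01 to 0.33 at 6 h and 2.57 to 2.95 at 24 h. Of 6 tested myeloid progenitor markers, 2 were called higher at 6 h and 5 at 24 h, and their median value was -0.20 in both IL-3 arrays and 0.56 to 0.74 at 24 h. Of 4 tested macrophage markers, 0 were called at 6 h and 2 were called higher at 24 h. Of 3 tested mast cell and 2 tested erythroid markers, 1 each was called higher at 6 h, and 1 higher and 1 lower at 24 h, and no tested T cell, B cell or fibroblast marker was called at either time. Whether a shift in cell state or cell mix contributes to the changes below was not tested, and in such bulk samples a lower value could stand for fewer expressing cells or for less RNA in each cell. Of the 3 probe sets for mouse Asxl1, 2 were no higher in ASXL1-MT than in mock cells at any time, and 1458380_at was higher by 0.99, 0.74, 0.83 and 0.16 in IL-3 and at 2, 6 and 24 h. The sources used here do not say whether these probes detect the introduced cDNA, so they do not check the labels.

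No member passed the test after 2 h in G-CSF, most fell by 6 h, and 40 of 52 were called lower at both 6 and 24 h. At 2 h the median change of the 52 members was -0.01, with a range of -0.35 to 0.13 in the probe sets used. Other probe sets at an estimated level of 8 or more were lower for Wdr75 (1442296_at, -0.99) and Heatr1 (1437965_at, -0.67), without a test. The probe sets used for these genes changed by 0.03 and 0.05, and 1452419_at of Heatr1 by -0.07. In limma 0 members were called (background 0.0% of all genes tested), and 2 members, Rrs1 (-0.35 ± 0.12) and Nop56 (-0.27 ± 0.09), were at an unadjusted p under 0.05, as were 1045 of all genes tested. At 6 h 44 of 52 members fell and 0 rose, while 6.85% of all genes tested were called lower and 9.13% higher. The median change was -1.13, against 0.11 for all genes tested, and the range ran from -2.15 (Bysl) to 0.19 (Polr1c). At 24 h 45 of 52 fell, where 11.2% of all genes tested were called lower, and 0 rose (14.0% called higher), with a median of -1.12 against 0.09 for all genes. A called fall of at least 2-fold was measured for 30 members at 6 h and for 33 at 24 h. Among all 13232 genes tested it was measured for 349 and 402.

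**Figure D1:**
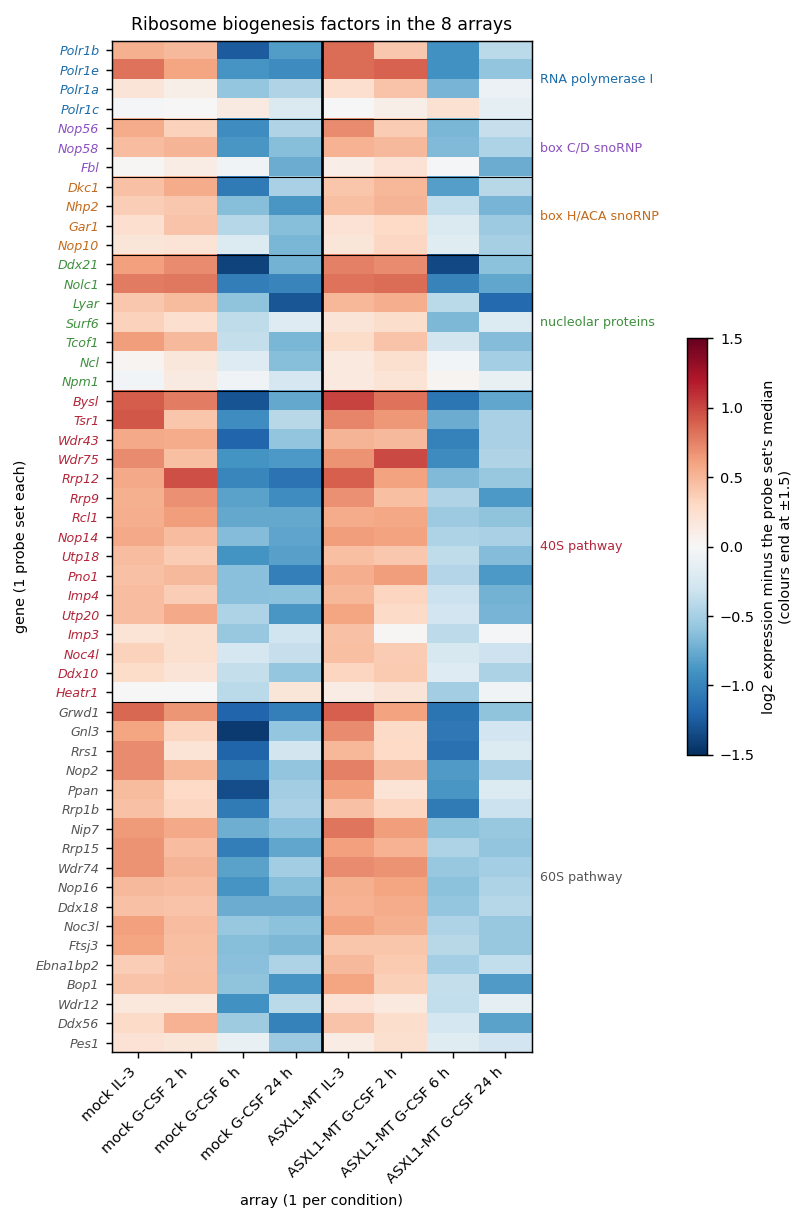
Log2 expression minus the probe set's median for the 52 members (rows, grouped by role and coloured by it) in the 8 arrays (columns, mock left and ASXL1-MT right, 1 array per condition), red above and blue below the median. The IL-3 and 2 h columns are red and the 6 h and 24 h columns blue for most genes in both vectors, and Polr1c, Npm1 and Heatr1 stand out as pale rows.

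In the median of the members, over the probe sets used, the drop came between 2 and 6 h. Over the 52 members the median value in the mock arrays was 0.47 in IL-3, 0.45 at 2 h, -0.74 at 6 h and -0.64 at 24 h. In the ASXL1-MT arrays it was 0.51, 0.42, -0.51 and -0.49. Against 2 h, 42 members were called lower at 6 h (background 5.61%), with a median change of -1.09, and this count went to 0 with any 1 array left out or with no filter on dim genes. Both 6 h arrays lay below both IL-3 arrays in 50 of 52 members (background 24.6% of all genes tested), and both 24 h arrays did so in 51 of 52 (background 28.2%). The call at 6 h needs all 8 arrays: leaving out any 1 of them, or fitting only the IL-3 and 6 h arrays, left 0 members called by limma, with 44 to 48 members at an unadjusted p under 0.05. With no filter on dim genes 27 members were called. The count at 24 h also went to 0 when mock or ASXL1-MT in IL-3, or mock or ASXL1-MT at 24 h, was left out, and was 43 or 44 without any other array.

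The 4 listed subunits of RNA polymerase I did not all change. Of these, 3 fell at 6 h and 2 at 24 h. Polr1b, a large catalytic subunit, had values of 0.53, 0.48, -1.25 and -0.84 in the mock arrays, in the order IL-3, 2, 6 and 24 h, which is kept below, and 0.83, 0.41, -0.90 and -0.41 in the ASXL1-MT arrays. All 4 arrays in IL-3 or at 2 h were above all 4 later arrays. The change was -1.76 ± 0.15 at 6 h (limma adjusted p = 0.0134) and -1.31 ± 0.15 at 24 h (adjusted p = 0.0126). Polr1e, a subunit peculiar to this polymerase, was at 0.81, 0.59, -0.88 and -0.94 in mock and 0.84, 0.88, -0.91 and -0.59 in ASXL1-MT cells. As before, early and late arrays did not overlap, and the changes were -1.72 ± 0.14 and -1.59 ± 0.14. Its other probe set, 1419058_at, changed by -1.42 and -1.26. By contrast Polr1c, a subunit shared with RNA polymerase III, was at -0.01, 0.01, 0.13 and -0.22 in mock and -0.01, 0.08, 0.22 and -0.14 in ASXL1-MT cells. Its highest arrays were those at 6 h and its lowest those at 24 h, and it was called at neither time (0.19 ± 0.08 and -0.17 ± 0.08). Polr1a, the largest subunit, fell at 6 h (-0.86 ± 0.16) and was not called at 24 h (-0.49 ± 0.16). Its other 4 probe sets did not all move alike: 1460215_at changed by -0.94 and -1.26 at 6 and 24 h, 1456066_a_at by -0.71 and -0.79, 1447598_x_at by -1.54 and -0.60, and the dim 1447597_at, at an estimated level of 4.2, by 0.93 and 0.81.

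Of the 3 listed proteins of the box C/D snoRNP, 2 fell at 6 h and all 3 at 24 h. Nop56, a scaffold protein of the particle, was at 0.56, 0.35, -0.94 and -0.46 in mock and 0.71, 0.39, -0.69 and -0.35 in ASXL1-MT cells, and its partner Nop58 was at 0.46, 0.51, -0.87 and -0.64 and 0.52, 0.49, -0.66 and -0.46. Both had their lowest arrays at 6 h, with changes of -1.45 ± 0.09 and -1.26 ± 0.10 then and -1.04 ± 0.09 and -1.04 ± 0.10 at 24 h. Fbl encodes fibrillarin, the methyltransferase of the same particle, and was at 0.02, 0.12, -0.05 and -0.74 in mock and 0.10, 0.21, -0.02 and -0.74 in ASXL1-MT cells. Its 24 h arrays were the lowest in both vectors. Its change was -0.10 ± 0.08 at 6 h, where it was not called, and -0.80 ± 0.08 at 24 h (limma adjusted p = 0.0096).

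In the box H/ACA snoRNP, whose proteins are also part of telomerase, 3 of 4 members fell at 6 h and all 4 at 24 h. Dkc1, the pseudouridine synthase dyskerin, was at 0.43, 0.56, -1.06 and -0.49 in mock and 0.41, 0.49, -0.82 and -0.41 in ASXL1-MT cells, lowest at 6 h. Nhp2, an RNA-binding partner, was at 0.37, 0.41, -0.64 and -0.88 and 0.46, 0.51, -0.37 and -0.70, lowest at 24 h. Nop10, a small structural subunit, was at 0.18, 0.20, -0.21 and -0.69 and 0.18, 0.31, -0.18 and -0.49, also lowest at 24 h. In all 3 the arrays of 6 and 24 h lay below those of IL-3 and 2 h. Dkc1 changed by -1.36 ± 0.11 and -0.87 ± 0.11, and Nhp2 by -0.92 ± 0.09 and -1.20 ± 0.09. Nop10 was not called at 6 h (-0.37 ± 0.09) and fell at 24 h (-0.77 ± 0.09), and Gar1, the remaining protein, fell at both (-0.56 ± 0.12 and -0.82 ± 0.12).

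The abundant proteins of the nucleolus ranged from large falls to values near 0. Of 7 members, 5 fell at 6 h and 5 at 24 h, and their changes at 6 h ran from -2.05 to -0.07. Ddx21, an RNA helicase that takes part in polymerase I transcription and RNA processing, was at 0.61, 0.71, -1.38 and -0.71 in mock and 0.75, 0.71, -1.35 and -0.61 in ASXL1-MT cells. The 6 h arrays were the lowest in both vectors, with a change of -2.05 ± 0.09 (4.15-fold lower, limma adjusted p = 0.013) at 6 h and -1.34 ± 0.09 at 24 h. Nolc1, a chaperone of snoRNPs, was at 0.78, 0.79, -1.03 and -0.99 in mock and 0.81, 0.84, -1.001 and -0.78 in ASXL1-MT cells. Its late arrays all lay below its early ones, and it fell by 1.81 at 6 h and 1.68 at 24 h on the log2 scale. Npm1 encodes nucleophosmin, a histone and ribosome chaperone. It was at -0.04, 0.13, -0.06 and -0.26 in mock and 0.15, 0.20, 0.04 and -0.11 in ASXL1-MT cells. Its IL-3 and 6 h arrays overlapped, and it was called at neither time (-0.07 ± 0.08 and -0.24 ± 0.08). Nucleolin (Ncl) fell at 24 h (-0.68 ± 0.08) and was not called at 6 h (-0.22 ± 0.08) in the probe set used, 1415771_at. Its other probe sets at an estimated level of 8 or more had larger falls, without a test. At 6 and 24 h 1415772_at changed by -0.89 and -0.94, 1415773_at by -0.37 and -0.88, and 1456528_x_at by -0.77 and -1.06. Treacle (Tcof1), which links polymerase I transcription to RNA modification, fell at both times (-0.76 ± 0.14 and -1.12 ± 0.14), as did the growth-linked nucleolar protein Lyar (-0.95 ± 0.08 and -1.68 ± 0.08). Surf6 fell at 6 h (-0.80 ± 0.12) and was not called at 24 h (-0.47 ± 0.12).

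**Figure D2:**
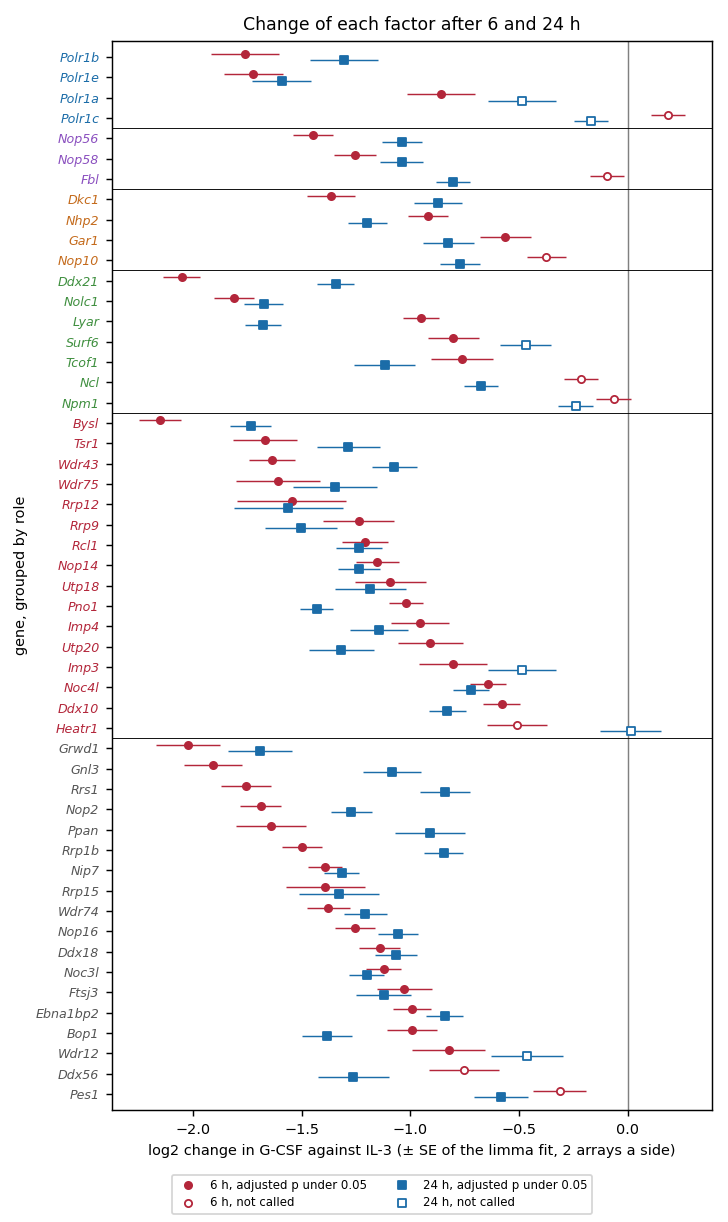
Log2 change of each of the 52 members at 6 h (circles) and 24 h (squares) of G-CSF against IL-3, with the standard error of the limma fit (2 arrays a side). Filled symbols are called and open ones are not. Filled symbols all lie left of 0, 44 at 6 h and 45 at 24 h, and Bysl at 6 h is the farthest left at -2.15.

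The small subunit processome, which folds and cuts the precursor toward the 40S subunit, and the factors that finish that subunit fell nearly as a block. Of 16 members, 15 fell at 6 h and 14 at 24 h, with medians of -1.12 and -1.24. Bysl (bystin), needed late in 40S maturation, was at 0.91, 0.77, -1.30 and -0.77 in mock and 1.02, 0.81, -1.08 and -0.78 in ASXL1-MT cells. In the probe set used it was 4.45-fold lower at 6 h (-2.15 ± 0.10, limma adjusted p = 0.013) and 3.33-fold lower at 24 h (-1.74 ± 0.10, adjusted p = 0.00664). Its other probe set changed by -1.82 and -1.05. Tsr1, a late cytoplasmic factor of the 40S subunit, was at 0.93, 0.42, -0.94 and -0.42 in mock and 0.73, 0.65, -0.74 and -0.49 in ASXL1-MT cells. The early and late arrays did not overlap, and it fell by 1.67 and 1.29. Heatr1, a processome protein that also acts in polymerase I transcription, was at -0.01, 0.01, -0.41 and 0.18 in mock and 0.11, 0.19, -0.52 and -0.06 in ASXL1-MT cells. Its 6 h arrays were the lowest and its 24 h arrays overlapped those in IL-3. It was called at neither time (-0.51 ± 0.14 and 0.01 ± 0.14), and the 24 h value changed sign with the scaling of the arrays and without either mock array of that contrast. Its other 2 probe sets also had values below 0 at 6 h (-0.75 and -0.25) and above 0 at 24 h (0.26 and 0.30).

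Wdr43 and Wdr75 belong to the same processome subcomplex as Heatr1, and both fell at 6 and 24 h, with changes of -1.64 and -1.07 and of -1.61 and -1.35. Proteins tied to the U3 snoRNA at the processome's core were Rrp9, which changed by -1.24 and -1.505 (both called), Imp4 (-0.96 and -1.15, both called) and Imp3, which was called at 6 h (-0.80) and not at 24 h (-0.49). Other probe sets of Imp4 had smaller falls at 24 h, without a test: 1426214_at changed by -0.76 and -0.77, and 1455723_at by -1.05 and -0.25. Nop14 and its partner Noc4l fell at both times, by 1.15 and 1.24 and by 0.64 and 0.72. Other probe sets of Noc4l had larger falls, with changes of -0.91 to -1.26 at 6 h and -1.10 to -1.31 at 24 h. Utp18 (-1.09 and -1.19) and Utp20 (-0.91 and -1.32), both processome components, were also called lower at both times. So were Rcl1 (-1.21 and -1.24), the export factor Rrp12 (-1.55 and -1.56), Pno1 (-1.02 and -1.43), which acts with the last nuclease of the 40S pathway, and the helicase Ddx10 (-0.58 and -0.83).

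Among the 18 measured assembly factors of the 60S subunit, 16 fell at 6 h and 17 at 24 h, with medians of -1.32 and -1.10. Grwd1, a WD-repeat protein of early 60S particles, was at 0.86, 0.67, -1.19 and -1.02 in mock and 0.90, 0.60, -1.10 and -0.60 in ASXL1-MT cells. Gnl3 (nucleostemin), a GTPase of the nucleolus known from stem and progenitor cells, was at 0.59, 0.32, -1.44 and -0.58 and 0.71, 0.28, -1.07 and -0.28. Each had its lowest arrays at 6 h. In the probe set used, 1455841_s_at, Grwd1 was 4.07-fold lower at 6 h (-2.02 ± 0.15) and 3.23-fold lower at 24 h (-1.69 ± 0.15). Its other probe sets fell less, by sign and size alone: 1452171_at changed by -1.52 and -1.40, and 1436887_x_at by -1.35 and -1.19. Gnl3 was 3.75-fold lower at 6 h (-1.91 ± 0.13) and 2.12-fold lower at 24 h (-1.08 ± 0.13).

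Pes1, Bop1 and Wdr12 form 1 complex of the 60S pathway, and their values were unlike. Pes1 was at 0.22, 0.18, -0.12 and -0.55 in mock and 0.12, 0.25, -0.18 and -0.28 in ASXL1-MT cells. Its change at 6 h, -0.31 ± 0.12, was the smallest of the 60S factors and was not called, and it fell at 24 h (-0.58 ± 0.12). Bop1 fell at both times (-0.99 ± 0.12 and -1.38 ± 0.12). Wdr12 fell at 6 h (-0.82 ± 0.17) and was not called at 24 h (-0.46 ± 0.17). Its probe sets disagreed: 1448646_at changed by -0.59 and -0.80, and the dim 1459762_x_at, at an estimated level of 3.6, by 2.36 and 0.48, so that the mean over its probe sets was 0.32 at 6 h (adjusted p = 0.631).

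The other 60S factors were called lower at both times with 1 exception. In the order 6 and 24 h, the rRNA methyltransferases changed by -1.69 and -1.27 (Nop2) and by -1.03 and -1.12 (Ftsj3). Rrs1, which helps to bring the 5S particle into the subunit, changed by -1.76 and -0.84. Ppan (-1.64 and -0.91), Rrp1b (-1.499 and -0.85), Rrp15 (-1.39 and -1.33) and Nip7 (-1.39 and -1.32) followed. Wdr74 (-1.38 and -1.21), Nop16 (-1.26 and -1.06), Noc3l (-1.12 and -1.20) and Ebna1bp2 (-0.99 and -0.84) were called at both times as well. Of the helicases, Ddx18 fell at both times (-1.14 and -1.07), and Ddx56 was the exception, called at 24 h (-1.26 ± 0.16) but not at 6 h (-0.75 ± 0.16).

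Across the 6 roles, 40 members were called lower at both times, 4 at 6 h only (Polr1a, Surf6, Imp3 and Wdr12), 5 at 24 h only (Fbl, Nop10, Ncl, Pes1 and Ddx56) and 3 at neither (Polr1c, Npm1 and Heatr1). Being called at 1 time and not at the other does not show a difference between the times, which was tested directly. From 6 to 24 h, 3 members rose (background 2.76%) and 2 fell (background 2.31%) in limma. Rrs1 rose by 0.92 ± 0.12 (limma adjusted p = 0.0429), Ddx21 by 0.71 ± 0.085 (adjusted p = 0.0396) and Rrp1b by 0.65 ± 0.09 (adjusted p = 0.046), all remaining below their IL-3 values. Lyar (-0.73 ± 0.08), already lower at 6 h, and Fbl (-0.71 ± 0.08), not called at 6 h, fell between these times, each at an adjusted p of 0.0382 in limma. By sign alone 28 members were higher and 24 lower at 24 h than at 6 h, while 50.3% of all genes tested were lower. Of the 18 factors of the 60S subunit 13 were higher, with 2 called. Of the 16 of the 40S pathway 10 were lower, with 0 called, and a difference between these roles was not tested. The 5 calls went to 0 with any 1 array left out, with no filter on dim genes, with quantile normalization and with the mean of all probe sets. A stricter filter on dim genes called 19 members, and choosing probe sets by octave of level called 6.

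Separate probe sets of a gene bear on these 5. Rrs1 rose in both of its bright probe sets (0.92 and 0.64), as did Rrp1b in its 3 (0.65, 0.47 and 1.27), and Fbl was lower in both (-0.71 and -0.84), where these are mean differences between 24 and 6 h without a test. Lyar had 1 bright probe set. For Ddx21 the second probe set went the other way, with 0.71 in 1448270_at and -0.60 in 1448271_a_at, although both lay below IL-3 at 6 h (-2.05 and -1.34) and at 24 h (-1.34 and -1.93). Signs between 6 and 24 h also differed among bright probe sets for Imp4, Noc4l, Polr1a and Wdr12, making 5 of the 26 members that have several. Against IL-3, no such disagreement occurred among bright probe sets at either time. Of the 88 probe sets at a level of 8 or more, 86 lay below 0 at 6 h and 85 at 24 h.

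**Figure D3:**
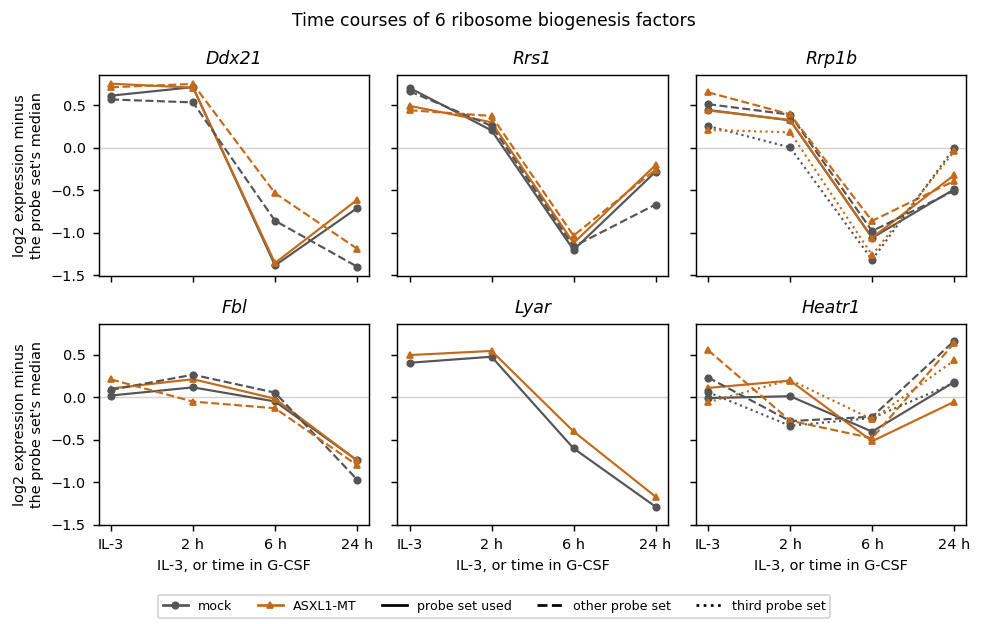
Log2 expression minus the probe set's median against condition (IL-3, then 2, 6 and 24 h of G-CSF; 1 array per point) for 6 members, in mock (grey circles) and ASXL1-MT (orange triangles); solid lines are the probe set used, dashed and dotted lines other probe sets at a level of 8 or more. Rrs1 and Rrp1b recover in part from 6 to 24 h, Lyar is lower at 6 h and lower again at 24 h, Fbl drops between 6 and 24 h, all 3 probe sets of Heatr1 have higher mean values at 24 h than at 6 h, and the 2 probe sets of Ddx21 part after 6 h.

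The fall was measured in both vectors. In ASXL1-MT cells the median change of the members from IL-3 was -1.07 at 6 h and -1.03 at 24 h, and in mock cells -1.22 and -1.19. ASXL1-MT against mock, over 4 arrays a side, gave 0 calls among the members (background 0.0%) and 0 members at an unadjusted p under 0.05, where 839 of all genes tested reached that. The fitted difference was above 0 for 49 of 52 members, with a median of 0.09 and a largest value of 0.25 (Polr1b), and below 0 for Tcof1, Surf6 and Heatr1. Only the probe set used for each gene entered this fit. For Tcof1, 1423601_s_at was higher in ASXL1-MT than in mock at every time, and 1423600_a_at at every time but 24 h. The fitted difference was above 0 for 6607 of the 13232 genes tested, for 41 of 43 ribosomal proteins and for 67 of 95 other ribosome biogenesis factors. An effect of ASXL1-MT at 24 h beyond that at the other times was called for 0 members (background 0.0%), and the same test at 6 h called 0 (background 0.0%). At an unadjusted p under 0.05 there were 0 members in both, against 769 and 762 of all genes tested.

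At single times, with 1 array a side and no test, ASXL1-MT exceeded mock in 38 of 52 members in IL-3, 30 at 2 h, 46 at 6 h and 46 at 24 h, with median differences of 0.06, 0.04, 0.18 and 0.14. Among 7638 tested genes at a level of 8 or more, 50.4%, 45.5%, 50.3% and 49.8% were higher in ASXL1-MT at these times. The members' counts moved with the scaling: quantile normalization gave 29, 23, 44 and 40, so the direction at 2 h turned. Centring each array gave 36, 34, 40 and 45, with 48.6%, 49.7%, 39.4% and 46.2% of the same bright genes higher in ASXL1-MT. In the probe sets used, differences above 0.5 were those of Wdr75 (0.53) at 2 h, of Rrp15 (0.57), Wdr12 (0.54) and Utp18 (0.52) at 6 h and of Rrp12 (0.54) at 24 h. There no member differed by 1 log2 unit at any time. Other bright probe sets differed less: 1442296_at of Wdr75 was at -0.14 in ASXL1-MT and 0.01 in mock at 2 h. For Wdr12, 1448646_at was at -0.25 in ASXL1-MT and -0.39 in mock at 6 h. All members at one time share the same 2 arrays, so these counts are not independent of one another.

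Related lists place the members in the rest of the pathway. For comparison, 6.85% of all genes tested were called lower and 9.13% higher at 6 h, and 11.2% lower and 14.0% higher at 24 h. Of 95 other tested ribosome biogenesis factors, 45 fell and 1 rose at 6 h (median change -0.57), and 57 fell and 2 rose at 24 h (median -0.67). They comprise 43 factors of the 40S pathway, of which 20 fell at 6 h and 29 at 24 h, 40 of the 60S subunit (21 and 24) and 12 of the RNA polymerase I machinery (4 and 4). Utp15, a processome subunit (-1.49 at 6 h), Nmd3, the export adaptor of the 60S subunit (-1.56), and Rrn3, the initiation factor that recruits polymerase I (-0.90), were among those that fell at 6 h. Ttf1, the terminator protein of polymerase I, rose at 6 h (0.69 ± 0.11) and 24 h (0.73 ± 0.11), and Kri1 rose at 24 h (0.78). In the nuclear exosome, which trims the precursor RNA, 3 of 13 genes fell at 6 h and 6 at 24 h. The ribosomal proteins are the parts that these factors assemble. Of 79 listed genes for them 44 had a probe set of 1 symbol and 43 were tested. Of these, 5 fell at 6 h (Rpl12, Rpl41, Rps10, Rps25 and Rps9), 4 fell at 24 h and 0 rose at either time. The shares called lower were 11.6% and 9.3%, against 6.85% and 11.2% of all genes tested. The median change of the ribosomal proteins was 0.12 at 6 h and 0.19 at 24 h. Among the 10 subunits of RNA polymerase II tested, 1 fell at 6 h and 8 at 24 h, with medians of -0.23 and -0.59.

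**Figure D4:**
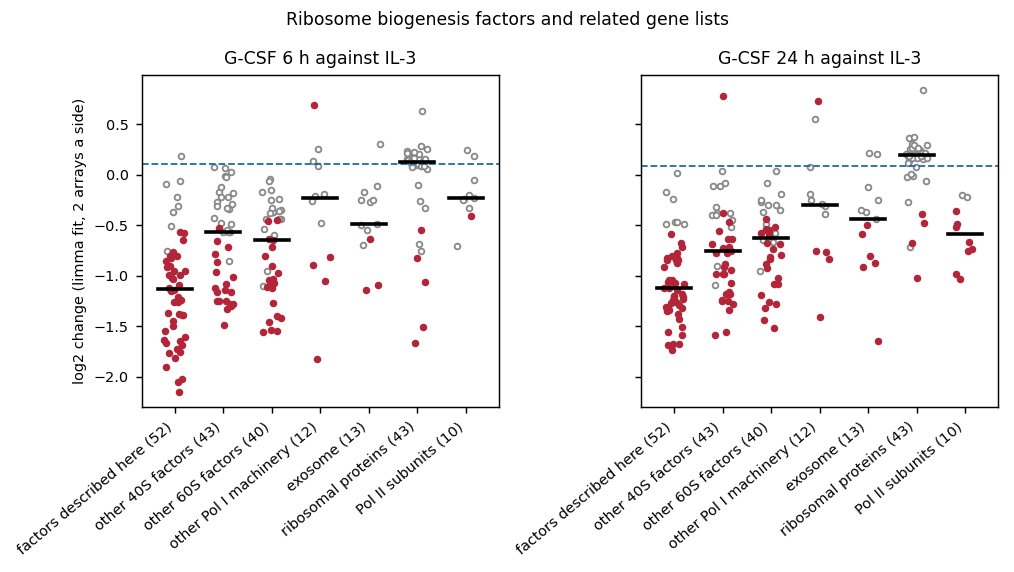
Log2 change of single genes at 6 h (left) and 24 h (right) of G-CSF against IL-3 in the members and in 6 related lists (number of tested genes in brackets); red points are called by limma, open points are not, black bars are list medians and the dashed line is the median of all genes tested. The members' median lies at -1.13 and -1.12, and the medians of the other 40S and 60S factors lie between it and 0. The median of the ribosomal proteins is above the dashed line.

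Of 11 tested genes of the MYC and MAX network, 3 rose, 1 fell and 7 were not called at 6 h. At 24 h 3 rose, 0 fell and 8 were not called. Among all genes tested, 9.13% were called higher and 6.85% lower at 6 h, and 14.0% higher and 11.2% lower at 24 h. Myc itself was at -1.93 ± 0.085 against IL-3 at 2 h, which was not called (limma adjusted p = 0.0704), and fell at 6 h (-1.25 ± 0.085, limma adjusted p = 0.013). At 24 h it was not called (-0.34 ± 0.085, limma adjusted p = 0.0562). Mxd1, Mxd4 and Mxi1, MAX partners that oppose MYC, rose at 6 h by 2.21, 2.06 and 0.64 and at 24 h by 3.47, 1.97 and 0.73. Myc had its lowest value at 2 h, when the median change of the biogenesis factors was -0.01, and was nearest its IL-3 value at 24 h, when that median was -1.12. Whether these changes are linked was not tested.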

How the data were processed

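RNA from 8 conditions was hybridised to Affymetrix mouse arrays. The labels name MAS 5.0 for capturing the signal, and RMA, of no stated version, appears in the submitters' processing notes. The deposited values were taken as log2 expression, centred by the authors on each probe set's median over the 8 arrays (row medians within 5e-07 of 0). How they were centred and scaled, and the log base, is not given in the sources used here. With a natural log every difference would be 1.44 times larger.

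Levels before centring were estimated from the rounding step of the stored 32-bit numbers. On 8000 simulated probe sets the median absolute error was 0.591, with 82.6% on the correct side of the filter level of 6.26 and 96.5% on that of 8. Each gene took a probe set whose estimated level, rounded to an integer, was the highest for that gene. Among equals, names with no letter before the final _at were preferred, then the lower number. The probe set used was therefore not always the one with the highest unrounded level. Genes whose second-highest array reached 6.26 were tested. The estimate grows with a probe set's range, so this choice could favour a probe set that moved more. Grwd1 took 1455841_s_at (level 10.685) over 1452171_at (10.468), which fell less. Polr1e likewise took 1435057_x_at (10.536) over 1419058_at (10.499). Noc4l, by contrast, took the probe set that fell least. A choice by octave of level was added after seeing the data, as was the ASXL1-MT test at 6 h.

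Genes were fitted with limma 3.58.1 in R 4.3.3 on time point and vector (3 residual degrees of freedom, prior 1.12, and 2 residual with an added ASXL1-MT term at 24 or 6 h), two-sided, with Benjamini-Hochberg adjustment over 13232 genes at 0.05. The fit was also run on simulated data with independent residuals and no difference between the time courses of the vectors. That run cannot show how the calls behave where the time courses do differ. Values in all arrays are given for the 2 members of each role with the largest change at 6 h and the 1 with the smallest, and would be for any member called higher at 6 or 24 h. Members whose probe sets differ in sign at those times are named with each. Members, lists and tests were chosen with earlier results of these data known, and the members singled out between 6 and 24 h or between vectors, and genes named from other lists, after their values were seen. Alternatives covered the filter, scaling, probe set choice, single arrays left out and a fit of 4 arrays.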

Additional observations from a re-analysis of the deposited data

How the results depend on the processing

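The median changes of the members at 6 and 24 h kept their direction in every alternative run, while the calls depended on the number of arrays. Leaving out 1 array at a time gave 0 to 0 members called lower at 6 h (smallest adjusted p 0.0506 to 0.104 in limma), 0 to 44 at 24 h, 0 to 0 for 6 h against 2 h and 0 to 0 for 24 h against 6 h. A fit of only the 4 arrays of each contrast gave 0 members in all 4 contrasts. Without a filter on dim genes 27 members were called at 6 h, 0 for 6 h against 2 h and 0 for 24 h against 6 h. For 24 h against 6 h a stricter filter gave 19 members, and averaging a gene's probe sets or repeating quantile normalization gave 0 each. The causes were not tested, beyond that fewer arrays leave fewer residual degrees of freedom and a filter changes the number of genes in the adjustment. Signs turned for Wdr12 at 6 h when its probe sets were averaged (0.315), and for Heatr1 at 24 h with arrays centred (-0.072) and with quantile normalization (-0.063). Heatr1 at 24 h ranged from -0.135 to 0.16 with 1 array left out, below 0 without mock IL-3 (-0.074) and without mock 24 h (-0.135). The median for 6 h against 2 h was -1.28 with quantile normalization. Choosing probe sets by octave gave 45, 45 and 43 members at 6 h, 24 h and 6 h against 2 h, and 6 for 24 h against 6 h. ASXL1-MT gave 0 members under each alternative run. No paired analysis was possible by replicate number because each condition has only 1 array. The fit itself pairs the time points within each vector. Dim probe sets vary more (median SD 1.34 under level 4, 0.26 at 8 or more).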
